A study of Mus musculus with 48 samples.

Results

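The 8 genes described here encode transcription factors that set up and maintain the myeloid lineages, and they are rows of a count table with 24537 gene rows: Spi1, Cebpa, Cebpb, Irf8, Irf4, Klf4, Maf and Zeb2. They were chosen by name from what is known of myeloid development, with earlier results of these data already known. RNA was counted in immune cells sorted from mouse tumours on day 85 of treatment with AOM (azoxymethane, a carcinogen) and DSS (dextran sulfate sodium, an irritant of the gut wall). Every sample came from treated mice, and the genotypes were ko for Ccl17, a chemokine gene, and ctrl, which the labels describe no further; the deleted part of the gene is not given. Cells were sorted into 4 populations by surface Ly6C, abundant on newly arrived monocytes, and by MHC class II, the antigen-presenting molecules. Ly6Clo MHCIIhi had 8 replicates labelled ko and 8 labelled ctrl, and Ly6Clo MHCIIlo had 4 and 4. Ly6Chi MHCIIhi had 4 labelled ko and 3 labelled ctrl after 1 library was left out, and Ly6Chi MHCIIlo had 4 and 4. According to the study design, ko mice lived either with controls or apart from them. Which samples came from which cage is not labelled, nor are strain, sex and age, and no label ties a replicate to an animal of its own, so a p-value here measures only the spread among the samples at hand, which may be technical.

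As background, myeloid cells share a small set of lineage factors that act in layers. PU.1, the product of Spi1, and the C/EBP factors open enhancers in progenitors and stay on in mature cells. The interferon regulatory factors Irf8 and Irf4 bind DNA together with partners such as PU.1 and direct monocyte and dendritic cell fates, Klf4 is needed for inflammatory monocytes, and Maf and Zeb2 take part in the identity of mature tissue macrophages. In inflamed gut and in tumours, monocytes that enter with high Ly6C lose it as they turn into macrophages, and many gain MHC class II on the way.

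Maf and Cebpa were higher in both Ly6Clo populations than in both Ly6Chi populations, by 1.27 to 1.42 and by 1.30 to 1.40 on the log2 scale. Cebpb was lower in Ly6Clo MHCIIhi than in both Ly6Chi populations and lower in Ly6Clo MHCIIlo than in Ly6Chi MHCIIlo, while Ly6Clo MHCIIlo against Ly6Chi MHCIIhi and the 2 Ly6Chi populations did not pass, and Klf4 was lowest in Ly6Clo MHCIIlo. Zeb2 was higher in Ly6Clo MHCIIlo than in both MHCIIhi populations. Spi1 and Irf8 passed the threshold of no comparison between populations, and Irf4 was too sparse for most of them. None of the 8 passed the threshold between ko and ctrl in any population, but Irf4 was too sparse for the main test there. Its permutation test could pass only in Ly6Clo MHCIIhi, and a fit that kept sparse genes did not pass for it in any population.

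For the factors with the clearest differences between populations and an annotated start, the 300 bases around the start (250 before, 50 after; RefSeq, GRCm38.p6) are given, because Cebpa on one side and Cebpb and Klf4 on the other differed in opposite directions. Capitals mark TATAAA, the TATA box motif, and TGACG, the half-site of cyclic AMP response elements, each searched on both strands, so that TGACG on the other strand reads CGTCA. The windows lie at chr7:35119043-35119342 (plus strand) for Cebpa, chr2:167688665-167688964 (plus strand) for Cebpb and chr4:55532426-55532725 (minus strand) for Klf4.
Cebpa: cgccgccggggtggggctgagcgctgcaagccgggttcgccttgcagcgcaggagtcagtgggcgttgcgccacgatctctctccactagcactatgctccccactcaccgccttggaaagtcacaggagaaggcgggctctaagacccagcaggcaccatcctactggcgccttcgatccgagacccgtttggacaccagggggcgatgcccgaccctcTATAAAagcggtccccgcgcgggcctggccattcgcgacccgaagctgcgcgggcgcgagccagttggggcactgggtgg
Cebpb: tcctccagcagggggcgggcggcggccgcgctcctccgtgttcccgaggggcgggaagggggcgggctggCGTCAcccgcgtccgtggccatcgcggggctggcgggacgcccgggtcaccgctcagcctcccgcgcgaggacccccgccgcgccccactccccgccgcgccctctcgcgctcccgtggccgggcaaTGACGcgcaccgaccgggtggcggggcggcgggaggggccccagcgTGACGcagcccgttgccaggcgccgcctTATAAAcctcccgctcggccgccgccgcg
Klf4: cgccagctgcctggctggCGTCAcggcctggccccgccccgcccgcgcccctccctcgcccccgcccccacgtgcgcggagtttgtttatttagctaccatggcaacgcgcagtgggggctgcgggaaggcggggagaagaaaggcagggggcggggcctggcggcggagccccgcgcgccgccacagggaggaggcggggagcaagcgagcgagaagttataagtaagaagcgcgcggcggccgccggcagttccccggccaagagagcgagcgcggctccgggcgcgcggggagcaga
TATAAA stood once in the Cebpa window and once in the Cebpb window, and 13.6% of 32851 such windows hold it. TGACG stood 3 times in the Cebpb window and once in the Klf4 window, against 20.8% of windows with at least 1. The sites of the factors themselves were searched as well: TTGCNNAA (C/EBP), AGGAAG (PU.1) and GAAA followed by GAAA after a gap of 2 bases (interferon regulatory factors), on both strands, which 10.8%, 35.4% and 3.44% of windows hold. None of the 3 stood in these windows. Zeb2 has 4 windows, not printed, of which 3 hold AGGAAG (2 of these overlap each other) and the other one TTGCNNAA. G and C made up 67.3%, 80.7% and 74.3% of the bases for Cebpa, Cebpb and Klf4, against a median of 52.7% over all windows. Among the windows not printed, the half-site of cyclic AMP response elements stood once in each of the 2 overlapping Zeb2 windows. The TATA box motif stood once in the Irf4 window and once in an Irf8 window. These matches only describe the letters.

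All levels below are CPM: a gene's counts scaled to a common library size after adjustment by TMM (trimmed mean of M-values). A level is not corrected for gene length, and a difference is a log2 fold change from the quasi-likelihood test of edgeR with its standard error (SE). The Benjamini-Hochberg adjusted p covers all genes tested in a comparison, with a threshold of 0.05. Populations were compared with both genotypes together and genotype in the model. Kept libraries held 34362 to 500683 counts. The gates were visible in the RNA: Ly6c2 averaged 488 and 574 CPM (ko and ctrl) in Ly6Chi MHCIIhi and 1245 and 1138 CPM in Ly6Chi MHCIIlo, against 23.7 to 51.6 CPM in the Ly6Clo groups. Cd74, the chaperone of MHC class II, averaged 6945 to 13578 CPM in the MHCIIhi groups and 1651 to 2615 CPM in the MHCIIlo groups. Ccl17 averaged 3.05 ± 2.49 CPM in Ly6Clo MHCIIhi ko and 167 ± 270 CPM in Ly6Clo MHCIIhi ctrl (SD, n = 8 each), and at most 12.5 CPM elsewhere, so it checks the genotype labels only loosely, and a tag outside the deleted part would check nothing. Summed macrophage markers (8 of 8 detected in every group) ran from 18037 to 47912 CPM in Ly6Clo MHCIIhi and from 20600 to 38717 CPM in Ly6Clo MHCIIlo, against 6644 to 12953 CPM in Ly6Chi MHCIIhi and 3415 to 7082 CPM in Ly6Chi MHCIIlo. Summed monocyte markers (7 of 7 detected in every group), Ly6c2 among them, ran the other way, with 290.3 to 1494 CPM in Ly6Clo samples and 1765 to 8108 CPM in Ly6Chi samples.

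One library stands apart. Ly6Chi MHCIIhi ctrl replicate 1, with 78264 counts, held 298649 CPM of erythroid and 75745 CPM of neutrophil markers, where the other 6 samples of that population held 87.5 to 1628 CPM and 485 to 1717 CPM. Ly6Chi MHCIIhi ctrl replicate 3 held only 34362 counts. Results that rest on Ly6Chi MHCIIhi are therefore given with and without these samples. In bulk samples, fewer cells of a type and less RNA per cell cannot be told apart.

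**Figure D1:**
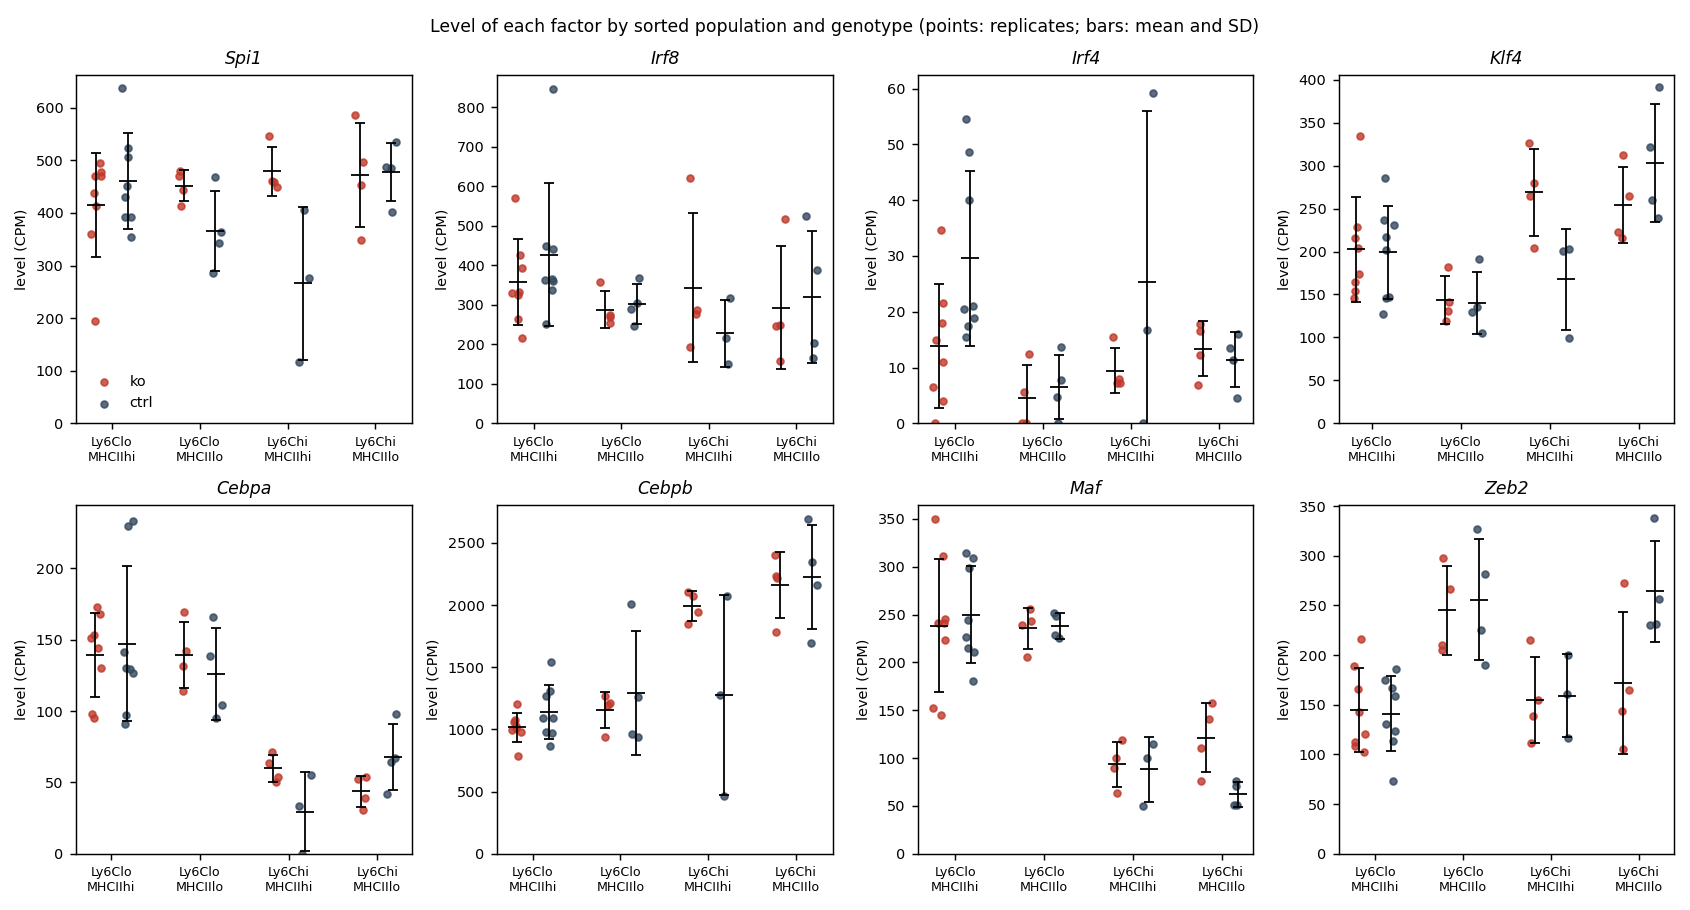
Level of each factor in CPM (linear axis from 0) in each replicate, by sorted population and genotype, with ko left of ctrl and bars for mean and SD. Maf and Cebpa sit higher in the 2 Ly6Clo populations and Cebpb has its highest mean in Ly6Chi MHCIIlo, while ko and ctrl points overlap for most factors.

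Spi1 (chromosome 2, 91082390 to 91115756, plus strand, GRCm38), which encodes PU.1, passed the threshold in none of the 6 comparisons of populations. Its lowest, median and highest levels were 196, 445 and 637 CPM in Ly6Clo MHCIIhi, 286, 428 and 479 CPM in Ly6Clo MHCIIlo, 117, 449 and 547 CPM in Ly6Chi MHCIIhi and 348, 487 and 586 CPM in Ly6Chi MHCIIlo. All 4 ranges overlap, and the lowest value of all is the library that stands apart. The means were 438 ± 95 CPM (SD, n = 16), 409 ± 70.6 CPM (n = 8), 388 ± 145 CPM (n = 7) and 475 ± 74.2 CPM (n = 8). Adjusted p over the 6 pairs of populations ran from 0.282 to 0.798, so no neighbours in the order of levels differed beyond their spread. Without Ly6Chi MHCIIhi ctrl replicates 1 and 3 the mean there was 464 ± 51.0 CPM (n = 5).

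Cebpa (chromosome 7, 35119293 to 35121928, plus strand), which progenitors need to enter the granulocyte and monocyte path, separated the Ly6C classes. Lowest, median and highest levels were 91, 136 and 233 CPM in Ly6Clo MHCIIhi and 95.5, 135 and 169 CPM in Ly6Clo MHCIIlo, against 0, 53.9 and 71.6 CPM in Ly6Chi MHCIIhi and 30.9, 52.8 and 98 CPM in Ly6Chi MHCIIlo. All samples of both Ly6Clo populations lay above all of Ly6Chi MHCIIhi, as for Maf below, where 0.975% of genes tested did not overlap in either direction for Ly6Clo MHCIIhi and 4.86% for Ly6Clo MHCIIlo. Against Ly6Chi MHCIIlo, 12 of 16 Ly6Clo MHCIIhi samples and 7 of 8 Ly6Clo MHCIIlo samples lay above its highest. The difference was 1.40 (SE 0.23, adjusted p = 5.975e-05) for Ly6Clo MHCIIhi against Ly6Chi MHCIIhi. Members called in that comparison were Cebpa, Maf and Cebpb, 3 of 8 tested, where 15.7% of all genes tested were called. Ly6Clo MHCIIlo against Ly6Chi MHCIIlo gave 1.30 (SE 0.21, adjusted p = 1.966e-05). In that comparison 4 of 7 tested members (Cebpa, Maf, Klf4 and Cebpb) were called, against 37.2% of all genes. Across both gates, Cebpa differed by 1.37 (SE 0.19, adjusted p = 5.074e-07) for Ly6Clo MHCIIhi against Ly6Chi MHCIIlo, where 5 of 8 tested members were called against 42.6% of all genes. It differed by 1.33 (SE 0.22, adjusted p = 0.000223) for Ly6Clo MHCIIlo against Ly6Chi MHCIIhi, where 4 of 7 were called against 23.3% of all genes. The level of 0 in Ly6Chi MHCIIhi ctrl replicate 3 allows up to 75.1 CPM (3 counts of that library; counting error only), above the other values of its population, and without replicates 1 and 3 the mean there was 58.9 ± 8.61 CPM (n = 5). The differences from Ly6Chi MHCIIhi without these 2 samples were 1.26 (SE 0.22, adjusted p = 0.0001899) for Ly6Clo MHCIIhi and 1.184 (SE 0.21, adjusted p = 0.0001674) for Ly6Clo MHCIIlo. The macrophage marker sums given above moved with Cebpa and the monocyte marker sums ran against it, and the part of both in the result was not tested.

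Within a level of Ly6C, Cebpa did not pass: means were 143 ± 42.6 CPM in Ly6Clo MHCIIhi and 133 ± 27 CPM in Ly6Clo MHCIIlo (adjusted p = 0.605), and 46.8 ± 23.8 CPM in Ly6Chi MHCIIhi and 55.9 ± 21.1 CPM in Ly6Chi MHCIIlo (adjusted p = 0.983). Ly6Chi MHCIIhi against Ly6Chi MHCIIlo had 0 of 7 members past the threshold with edgeR, 0 at an unadjusted p under 0.05 and 0 with DESeq2, where 2.99% of all genes were called. Without ctrl replicates 1 and 3 of Ly6Chi MHCIIhi, 0 of 8 passed there, and the smallest adjusted p was 0.553, for Irf4. With ctrl samples alone, the adjusted p of Cebpa rose to 0.0596 in Ly6Clo MHCIIhi against Ly6Chi MHCIIhi and to 0.124 in Ly6Clo MHCIIlo against Ly6Chi MHCIIhi, where 3 Ly6Chi MHCIIhi samples remained.

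Maf (chromosome 8, 115682942 to 115707794, minus strand) encodes a large Maf factor of tissue macrophages that drives interleukin-10 in them. It had the same layout as Cebpa. From lowest through median to highest, its levels were 145, 241 and 349.7 CPM in Ly6Clo MHCIIhi and 205, 241 and 255 CPM in Ly6Clo MHCIIlo, against 50.1, 99.9 and 119 CPM in Ly6Chi MHCIIhi and 50.7, 75.9 and 158 CPM in Ly6Chi MHCIIlo. The Ly6Clo samples lay above the Ly6Chi samples without overlap in 3 of the 4 comparisons across Ly6C, and in Ly6Clo MHCIIhi against Ly6Chi MHCIIlo 14 of 16 lay above the highest. In Ly6Clo MHCIIlo against Ly6Chi MHCIIlo, groups without overlap were found for 2 of 7 members, Maf and Klf4, and for 10.3% of all genes tested. The differences were 1.33 (SE 0.18, adjusted p = 5.561e-06) for Ly6Clo MHCIIhi against Ly6Chi MHCIIhi and 1.42 (SE 0.18, adjusted p = 6.73e-07) for Ly6Clo MHCIIlo against Ly6Chi MHCIIlo. They were 1.41 (SE 0.18, adjusted p = 2.076e-07) for Ly6Clo MHCIIhi against Ly6Chi MHCIIlo and 1.27 (SE 0.16, adjusted p = 7.758e-06) for Ly6Clo MHCIIlo against Ly6Chi MHCIIhi, the last at an adjusted p of 0.0771 with ctrl samples alone. Without Ly6Chi MHCIIhi ctrl replicates 1 and 3, Maf differed from that population by 1.27 (SE 0.19, adjusted p = 2.982e-05) in Ly6Clo MHCIIhi and by 1.19 (SE 0.17, adjusted p = 1.3e-05) in Ly6Clo MHCIIlo. Within Ly6Clo the means were 244 ± 59.4 CPM in MHCIIhi and 237 ± 16.7 CPM in MHCIIlo, and within Ly6Chi 91 ± 25.6 CPM in MHCIIhi and 91.6 ± 40.5 CPM in MHCIIlo, with adjusted p of 0.789 and 0.99. The spread was narrowest in Ly6Clo MHCIIlo, where the 8 levels stayed within 205 to 255 CPM.

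Cebpb (chromosome 2, 167688915 to 167690418, plus strand, 1 exon) encodes a C/EBP factor of emergency granulopoiesis and of inflammatory genes in macrophages. Lowest, median and highest levels were 782, 1043 and 1542 CPM in Ly6Clo MHCIIhi and 940.2, 1203 and 2005 CPM in Ly6Clo MHCIIlo, against 466.2, 1940.1 and 2106 CPM in Ly6Chi MHCIIhi and 1694, 2225 and 2694 CPM in Ly6Chi MHCIIlo. All 16 Ly6Clo MHCIIhi samples lay below all 8 Ly6Chi MHCIIlo samples, as 1 of 8 members and 5.02% of all genes without overlap in that comparison, with a difference of -1.04 (SE 0.10, adjusted p = 3.561e-10). In Ly6Clo MHCIIlo, 7 of 8 lay below the lowest of Ly6Chi MHCIIlo, with a difference of -0.81 (SE 0.14, adjusted p = 8.343e-05). Ly6Clo MHCIIhi was lower than Ly6Chi MHCIIhi, with a difference of -0.65 (SE 0.17, adjusted p = 0.00846), although the samples overlap. That difference was -0.97 without Ly6Chi MHCIIhi ctrl replicates 1 and 3 (SE 0.11, adjusted p = 2.7e-07). The adjusted p was 0.0591 without Ly6Chi MHCIIhi ctrl replicate 4 and 0.825 with ctrl samples alone.

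The comparison of Cebpb between Ly6Clo MHCIIlo and Ly6Chi MHCIIhi depended on single libraries. With all samples the difference was -0.46 (SE 0.24, adjusted p = 0.175) and did not pass. It passed without Ly6Chi MHCIIhi ctrl replicate 1, at -0.66 (adjusted p = 0.003213), and without Ly6Clo MHCIIlo ctrl replicate 2, at -0.61 (adjusted p = 0.0421). Without Ly6Chi MHCIIhi ctrl replicates 1 and 3 it was -0.80 (SE 0.16, adjusted p = 0.0005306). Ly6Chi MHCIIhi ctrl replicates 1 and 3 had 466.2 and 1277 CPM, against 1846 to 2106 CPM in the other 5 of the population, whose mean was 2008 ± 111 CPM. Within Ly6Clo and within Ly6Chi, Cebpb did not pass (adjusted p = 0.276 and 0.414). Cebpb overlaps Tmem189 on the other strand, which had 1538 counts over all libraries, against 17934 for Cebpb. No source used here gives the strand of counting, so reads from the shared stretch cannot be told apart.

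**Figure D2:**
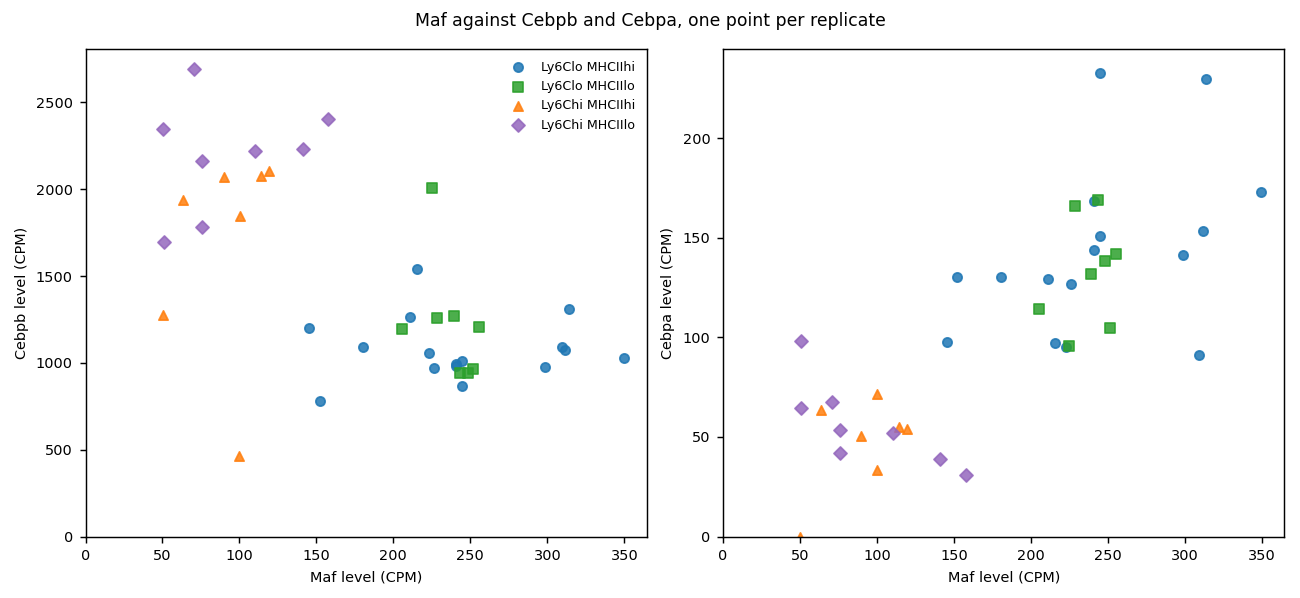
Maf level against Cebpb level (left) and Cebpa level (right), in CPM on linear axes from 0, 1 point per replicate, coloured by population. Most Ly6Clo samples lie at high Maf and Cebpa with low Cebpb and most Ly6Chi samples opposite, with overlap on each axis: a Ly6Clo MHCIIlo sample has 2005 CPM of Cebpb, a Ly6Chi MHCIIhi sample 1277 CPM, and a Ly6Chi MHCIIlo sample 158 CPM of Maf. The Ly6Chi MHCIIhi point at 466.2 CPM of Cebpb is the library rich in erythroid and neutrophil markers.

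Klf4 (chromosome 4, 55527143 to 55532466, minus strand), which inflammatory monocytes require, was lowest in Ly6Clo MHCIIlo. In the same order of lowest, median and highest, levels were 127, 203 and 334 CPM in Ly6Clo MHCIIhi, 105, 133 and 191 CPM in Ly6Clo MHCIIlo, 99.9, 204 and 326 CPM in Ly6Chi MHCIIhi and 216, 262 and 391 CPM in Ly6Chi MHCIIlo. Every Ly6Clo MHCIIlo sample lay below every Ly6Chi MHCIIlo sample, and the other pairs overlap. Klf4 was higher in Ly6Clo MHCIIhi than in Ly6Clo MHCIIlo by 0.53 (SE 0.16, adjusted p = 0.0169). In that comparison 2 of 7 tested members were called, Klf4 and Zeb2, against 25.5% of all genes. It was lower in Ly6Clo MHCIIlo than in Ly6Chi MHCIIlo, at -0.94 (SE 0.16, adjusted p = 3.056e-05), and lower than in Ly6Chi MHCIIhi, at -0.70 (SE 0.18, adjusted p = 0.00752). Ly6Clo MHCIIhi was lower than Ly6Chi MHCIIlo, with a difference of -0.46 (SE 0.15, adjusted p = 0.012). Ly6Clo MHCIIhi against Ly6Chi MHCIIhi did not pass (adjusted p = 0.555), nor did the 2 Ly6Chi populations (adjusted p = 0.601). With ctrl samples alone the adjusted p was 0.164 between the Ly6Clo populations and 0.621 for Ly6Clo MHCIIlo against Ly6Chi MHCIIhi, and without the count filter it was 0.0563 for Ly6Clo MHCIIlo against Ly6Chi MHCIIhi. This last difference was -0.83 (SE 0.18, adjusted p = 0.001366) without ctrl replicates 1 and 3 of Ly6Chi MHCIIhi.

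Zeb2 (chromosome 2, 44983632 to 45117395, minus strand), a zinc-finger repressor that keeps macrophages in their tissue-specific state, was lower in Ly6Clo MHCIIhi than in both MHCIIlo populations and higher in Ly6Clo MHCIIlo than in both MHCIIhi populations. The lowest, median and highest Zeb2 levels were 72.8, 137 and 216 CPM in Ly6Clo MHCIIhi and 189.7, 246 and 327 CPM in Ly6Clo MHCIIlo. They were 111, 154 and 215 CPM in Ly6Chi MHCIIhi and 105, 231 and 338 CPM in Ly6Chi MHCIIlo. In Ly6Clo MHCIIhi, 15 of 16 samples lay below the lowest Ly6Clo MHCIIlo sample, with a difference of -0.77 (SE 0.14, adjusted p = 0.000175). Ly6Clo MHCIIhi was also lower than Ly6Chi MHCIIlo, with a difference of -0.56 (SE 0.17, adjusted p = 0.0079), with 2 of 16 below the lowest. Ly6Clo MHCIIlo was higher than Ly6Chi MHCIIhi, by 0.64 (SE 0.18, adjusted p = 0.0117), with 5 of 8 above the highest, and this had an adjusted p of 0.0615 without the count filter and 0.347 with ctrl samples alone. It was 0.60 without Ly6Chi MHCIIhi ctrl replicates 1 and 3 (SE 0.19, adjusted p = 0.02154). Zeb2 did not pass between the 2 MHCIIhi populations (adjusted p = 0.737), between the 2 MHCIIlo populations (adjusted p = 0.267) or between the Ly6Chi populations, where the means were 157 ± 39.3 CPM in MHCIIhi and 218 ± 75.8 CPM in MHCIIlo (adjusted p = 0.503). The antisense gene Zeb2os was counted in its own row with 204 counts and averaged 14.4 CPM in Ly6Clo MHCIIhi, 14.6 CPM in Ly6Clo MHCIIlo, 15.9 CPM in Ly6Chi MHCIIhi and 17.9 CPM in Ly6Chi MHCIIlo. Neutrophil markers (11 of 11 detected) moved with Zeb2, with 342 to 1759 CPM in Ly6Clo MHCIIhi and 485 to 1717 CPM in Ly6Chi MHCIIhi without the library that stands apart, against 5505 to 29969 CPM in Ly6Clo MHCIIlo and 5737 to 19000 CPM in Ly6Chi MHCIIlo. Their part in the result was not tested.

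Irf8 (chromosome 8, 120736358 to 120756694, plus strand), a factor of monocytes and conventional dendritic cells, had its highest mean in Ly6Clo MHCIIhi. Irf8 had lowest, median and highest levels of 217, 362 and 848 CPM in Ly6Clo MHCIIhi, 245, 282 and 369 CPM in Ly6Clo MHCIIlo, 150.3, 277 and 620.2 CPM in Ly6Chi MHCIIhi and 158, 248 and 525 CPM in Ly6Chi MHCIIlo. The ranges overlap widely. High samples stood at 848 CPM in Ly6Clo MHCIIhi, at 620.2 CPM in Ly6Chi MHCIIhi, and at 525 and 518 CPM in Ly6Chi MHCIIlo. Ly6Clo MHCIIhi against Ly6Clo MHCIIlo came to 0.42 (SE 0.17, adjusted p = 0.0629) and did not pass. It passed without the count filter (adjusted p = 0.00782), without Ly6Clo MHCIIhi ctrl replicate 8 (0.0357) and without Ly6Clo MHCIIhi ko replicate 7 (0.0443). Against Ly6Chi MHCIIlo the adjusted p was 0.178, or 0.0457 without Ly6Chi MHCIIlo ko replicate 3, at 518 CPM one of the 2 highest of its population. Dendritic cell markers (9 of 10 in the table) summed to 188 to 495 CPM in Ly6Clo MHCIIhi, against 24.9 to 225 CPM in the other populations. Of the 9, 8 were detected in Ly6Clo MHCIIhi ko and 9 in ctrl, against 4 to 7 in the other groups. Detection means any count in the group, which depends on depth. Ly6Clo MHCIIhi ko and ctrl held 4094375 and 3747660 counts, against 355965 to 1279231 in the other groups, so numbers detected cannot be compared directly. Xcr1 was among those at 0 in Ly6Clo MHCIIlo and Ly6Chi MHCIIlo. The part of these markers in the levels of Irf8 was not tested.

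Irf4 (chromosome 13, 30749226 to 30766976, plus strand), a factor of dendritic cells, of alternatively activated macrophages and of plasma cells, was sparse, with 218 counts in all kept samples and 0 in 5 of the 39. The counts were 156 in Ly6Clo MHCIIhi, 9 in Ly6Clo MHCIIlo, 24 in Ly6Chi MHCIIhi and 29 in Ly6Chi MHCIIlo. Lowest, median and highest levels were 0, 18.5 and 54.6 CPM in Ly6Clo MHCIIhi, 0, 5.22 and 13.6 CPM in Ly6Clo MHCIIlo, 0, 7.95 and 59.3 CPM in Ly6Chi MHCIIhi and 4.61, 12.9 and 17.9 CPM in Ly6Chi MHCIIlo. In Ly6Clo MHCIIhi, 12 of 16 samples lay above the highest Ly6Clo MHCIIlo sample. Irf4 passed the count filter in 2 comparisons of populations, Ly6Clo MHCIIhi against Ly6Chi MHCIIhi and against Ly6Chi MHCIIlo, with adjusted p of 0.979 and 0.155. For the other 8 comparisons of 2 groups, mean log2(CPM + 1) was compared with an exact two-sided permutation test, with p adjusted over these 8. Ly6Clo MHCIIhi exceeded Ly6Clo MHCIIlo by 2.06 on that scale, with an exact p of 0.0079 (adjusted 0.0618). The difference of Ly6Clo MHCIIlo from Ly6Chi MHCIIlo was -1.64, with an exact p of 0.0232 (adjusted 0.0618). Neither passed after adjustment. With each sample left out in turn, the adjusted permutation p ran from 0.005678 to 0.0618 for the first and from 0.0373 to 0.124 for the second. The first passed without Ly6Clo MHCIIhi ko replicate 6, Ly6Clo MHCIIlo ctrl replicate 2 or Ly6Clo MHCIIlo ko replicate 4, and the second without ctrl replicate 2 of either population. The edgeR fit without the count filter gave 1.91 (adjusted p = 0.0012) for the first and -1.18 (adjusted p = 0.233) for the second. The 3 zeros in Ly6Clo MHCIIlo allow up to 14.6 to 17.1 CPM each (3 counts per sample), which is above the mean of Ly6Chi MHCIIlo, so a lower level was not detectable in these samples at this depth. Without Ly6Chi MHCIIhi ctrl replicates 1 and 3, Irf4 passed the count filter against that population as well and was lower in Ly6Clo MHCIIlo, at -2.05 with an adjusted p of 0.04852, but ctrl replicate 4 held 14 counts, where the 4 ko samples there held 1 to 4 each.

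**Figure D3:**
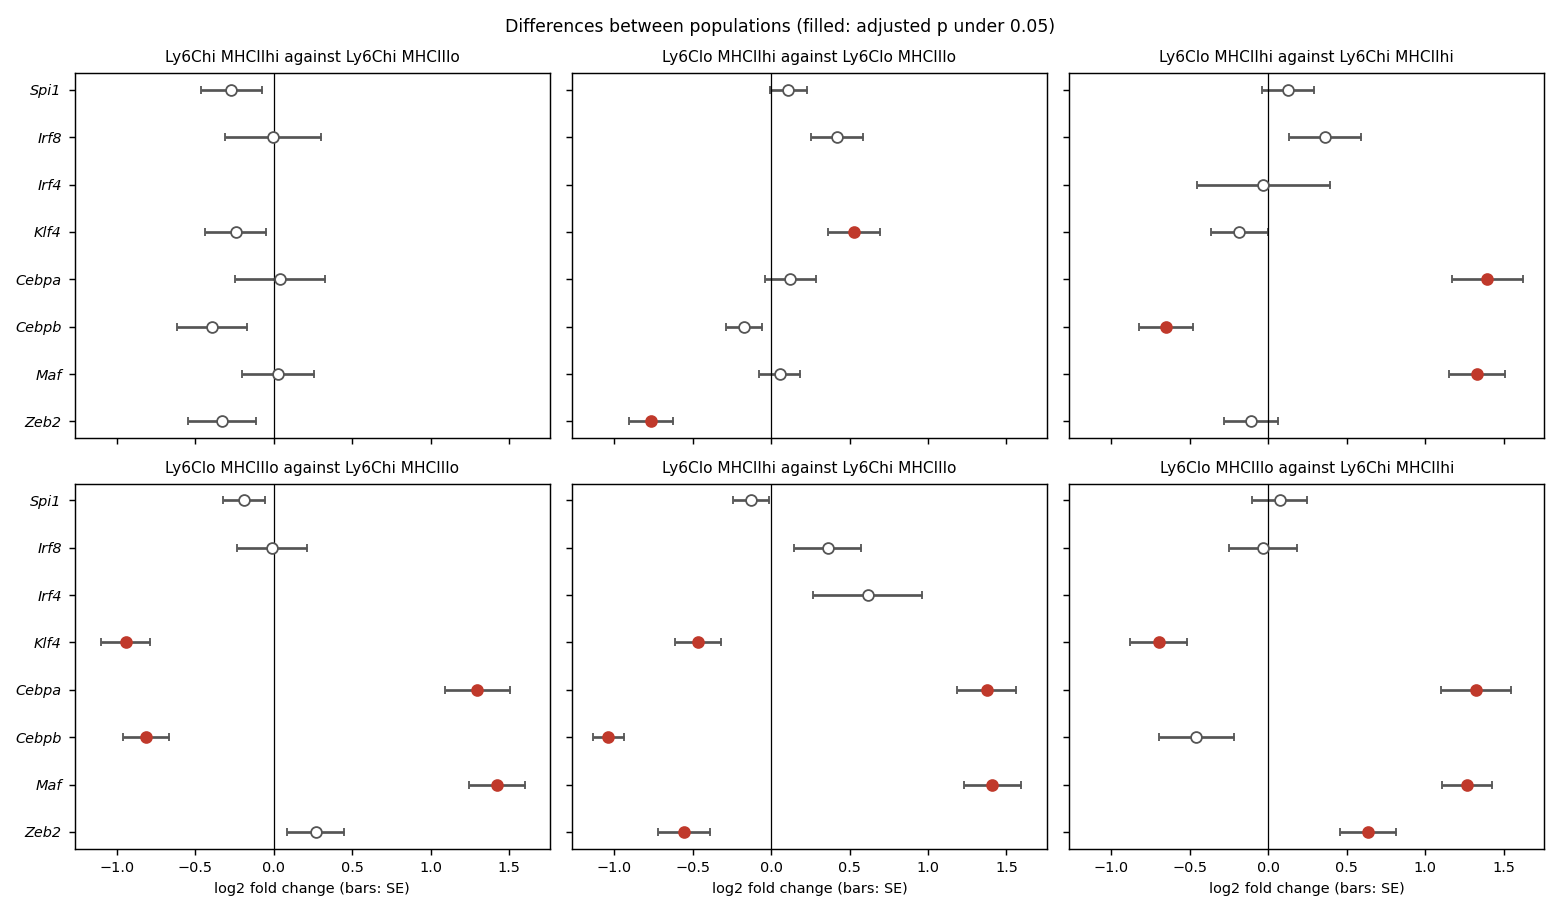
Log2 fold change of each factor (points, with SE bars) in the 6 comparisons of populations, the first-named population over the second; filled points had an adjusted p under 0.05. Maf and Cebpa lie near 1.3 to 1.4 in the 4 comparisons across Ly6C and near 0 in the other 2, and Cebpb lies to the left in all 6, filled in 3.

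Comparing ko with ctrl asks whether loss of Ccl17 goes with other levels of these factors in each population. With edgeR, 0 of 7 tested members passed in Ly6Clo MHCIIhi (0% of all genes called), in Ly6Clo MHCIIlo (0.0314%), in Ly6Chi MHCIIhi (0%) and in Ly6Chi MHCIIlo (0.0756%). At an unadjusted p under 0.05 the counts of members were 0, 0, 0 and 2, and with DESeq2 none passed in these 4 comparisons. Over all genes, edgeR called 0 of 5660, 1 of 3182, 0 of 3509 and 3 of 3966, with 295, 139, 244 and 444 at an unadjusted p under 0.05, and DESeq2 called 0, 2, 4 and 14.

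The 2 members with an unadjusted p under 0.05 were Maf and Zeb2 in Ly6Chi MHCIIlo. Maf had 110.4, 75.9, 158 and 141 CPM in ko replicates 1 to 4, against 70.6, 50.7, 50.7 and 75.9 CPM in ctrl replicates 1 to 4. Of the ko samples, 3 of 4 lay above the highest ctrl sample, and the fourth was level with it. The means were 121 ± 36.1 CPM in ko and 62 ± 13.2 CPM in ctrl (SD, n = 4 each). The log2 difference was 0.94 (SE 0.27, edgeR adjusted p = 0.225). Zeb2 had 144, 272, 165 and 105 CPM in ko, against 257, 230.3, 338 and 232 CPM in ctrl. Here 3 of 4 ko samples lay below the lowest ctrl sample and replicate 2 lay within the ctrl range. The means were 172 ± 71.5 CPM in ko and 264 ± 50.8 CPM in ctrl, a log2 difference of -0.67 (SE 0.26, edgeR adjusted p = 0.376). Neither passed after adjustment over all genes, and the unadjusted edgeR p was 0.00295 for Maf and 0.0228 for Zeb2.

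In Ly6Chi MHCIIhi, ko samples of Spi1 and Klf4 lay above all ctrl samples, and 10.9% of genes tested there had groups that do not overlap, in either direction. Spi1 had 449, 458, 461 and 547 CPM in ko, against 117, 275 and 407 CPM in ctrl replicates 1, 3 and 4. Klf4 had 280.2, 265, 326 and 204 CPM in ko, against 99.9, 200.3 and 203 CPM in ctrl. The lowest ctrl value of both is replicate 1, the library rich in erythroid and neutrophil markers, and the adjusted p was 0.709 for Spi1 and 0.71 for Klf4. Without replicates 1 and 3, 1 ctrl sample is left, which is assumed to vary like the ko samples, and the log2 difference was 0.23 for Spi1 and 0.38 for Klf4 (adjusted p = 0.994 each), against 0.66 and 0.52 with all samples. Without replicate 1 alone the ctrl means were 341 ± 92.7 CPM for Spi1 and 202 ± 2.06 CPM for Klf4 (n = 2), set beside ko means of 479 ± 45.6 CPM and 269 ± 50.4 CPM (n = 4).

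Irf4 in Ly6Clo MHCIIhi had lowest, median and highest levels of 0, 13 and 34.7 CPM in ko and 15.4, 20.8 and 54.6 CPM in ctrl (n = 8 each; 62 and 94 counts). Of the ko samples, 5 of 8 lay below the lowest ctrl sample. On the log2(CPM + 1) scale ko differed from ctrl by -1.44, with p = 0.0214 by exact permutation (adjusted 0.0618), which did not pass. The edgeR fit without the count filter gave a smaller log2 fold change of -0.72 (adjusted p = 0.648). The ko sample at 0, replicate 6, has the smallest library of the population and allows up to 65.2 CPM, above every ctrl value. Leaving out each sample in turn gave exact permutation p from 0.00653 to 0.0429 (adjusted 0.0316 to 0.114) and differences from -1.70 to -0.96. The lowest adjusted p, the one that passed, was without ko replicate 3. Taking library 1 of each replicate within a class of barcode, Irf4 averaged 19.3 ± 12.6 CPM in ko and 35.4 ± 19.7 CPM in ctrl with A/T-rich barcodes, and 10.5 ± 9.01 CPM in ko and 33.7 ± 12.8 CPM in ctrl with G/C-rich barcodes (of library totals, SD, n = 4 each). B and plasma cell markers (8 of 8 detected in ko and 7 of 8 in ctrl, with Cd79a at 0) had medians of 191 CPM in ko and 3159 CPM in ctrl there, with ranges of 62.2 to 4781 CPM and 54.8 to 30160 CPM. Their part in the level of Irf4 was not tested. For Irf4 elsewhere, ko against ctrl had 35 permutations in Ly6Chi MHCIIhi and 70 each in Ly6Clo MHCIIlo and Ly6Chi MHCIIlo. Beside the other p-values adjusted with them, no levels of Irf4 could have passed in any single one of these populations. The permutation test therefore cannot decide whether Irf4 differed there. The edgeR fit without the count filter gave adjusted p of 0.973 in Ly6Clo MHCIIlo, 0.626 in Ly6Chi MHCIIhi and 0.938 in Ly6Chi MHCIIlo.

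The other members are given by their means. In Ly6Clo MHCIIhi these were 415 ± 98.6 CPM in ko and 461 ± 91.5 CPM in ctrl for Spi1, 358 ± 109 CPM and 427 ± 181 CPM for Irf8, and 202 ± 61 CPM and 199 ± 54.5 CPM for Klf4 (ko then ctrl, SD, n = 8 each). Cebpa had 139 ± 29.4 CPM in ko and 147 ± 54.6 CPM in ctrl, Cebpb 1017 ± 118 CPM and 1139 ± 221 CPM, Maf 239 ± 69.9 CPM and 249.96 ± 51 CPM, and Zeb2 145 ± 41.9 CPM and 141 ± 37.6 CPM. For each of the 7, the means of ko and ctrl differ by less than the larger of their SDs. In Ly6Clo MHCIIlo, Maf averaged 236 ± 21.5 CPM in ko and 238 ± 13.5 CPM in ctrl, Spi1 452 ± 30.0 CPM in ko and 365 ± 76 CPM in ctrl, and Cebpb 1154 ± 145 CPM in ko and 1293 ± 497 CPM in ctrl (n = 4 each). The smallest adjusted p of a member there was 0.999. In Ly6Chi MHCIIlo, Cebpa averaged 43.8 ± 10.9 CPM in ko and 67.9 ± 23.1 CPM in ctrl, with 2 of 4 ko samples below the lowest ctrl sample. The log2 difference was -0.68 (SE 0.32, edgeR adjusted p = 0.45).

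Whether the ko difference itself varied between populations was tested as an interaction in 1 model of all 8 groups, where 0.0663% of 6032 genes were called. With edgeR 0 of 8 members passed, 1 had an unadjusted p under 0.05 (Maf, p = 0.013, adjusted p = 0.662), and with DESeq2 none passed. Cebpb had an edgeR adjusted p of 0.845, and 0.0359 without Ly6Chi MHCIIhi ctrl replicate 4. That fit leaves only replicate 1, rich in erythroid and neutrophil markers, and replicate 3, with 34362 counts, in this ctrl group. Without replicate 1 instead, the adjusted p of Cebpb was 0.996.

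The genotype comparisons carry a limit of design. In Ly6Clo MHCIIlo, Ly6Chi MHCIIhi and Ly6Chi MHCIIlo every ko library has a G/C-rich sample barcode and every ctrl library an A/T-rich one, so the ko difference cannot be told apart from barcode class in these populations. In 5 replicates of Ly6Clo MHCIIhi that have a library of each class, 89 of 4945 genes (1.8%) differed between classes and 0 of 7 tested members did with edgeR, with 0 at an unadjusted p under 0.05. These are ctrl replicates 5 to 8, with library 1 G/C-rich and library 2 A/T-rich, and ko replicate 4, with the reverse. Class and library number can hardly be told apart there, and no other population has such replicates. Sums of erythroid markers (4 of 4 detected) ran at 413 to 12383 CPM in ko (median 1376) and 29.1 to 1505 CPM in ctrl (median 189.7) of Ly6Clo MHCIIhi. Both genotypes have libraries of both classes there, but unevenly: 8 of 12 ko libraries and 4 of 12 ctrl libraries are G/C-rich. The erythroid sums ran at 1631 to 6716 CPM in ko and 62.3 to 1351 CPM in ctrl of Ly6Clo MHCIIlo. In Ly6Chi MHCIIlo they ran at 54.9 to 2125 CPM in ko and 38.0 to 908 CPM in ctrl. In Ly6Chi MHCIIhi the medians were 999 CPM in ko and 1067 CPM in ctrl, with the library that stands apart among the ctrl samples. The part of these markers was not tested.

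**Figure D4:**
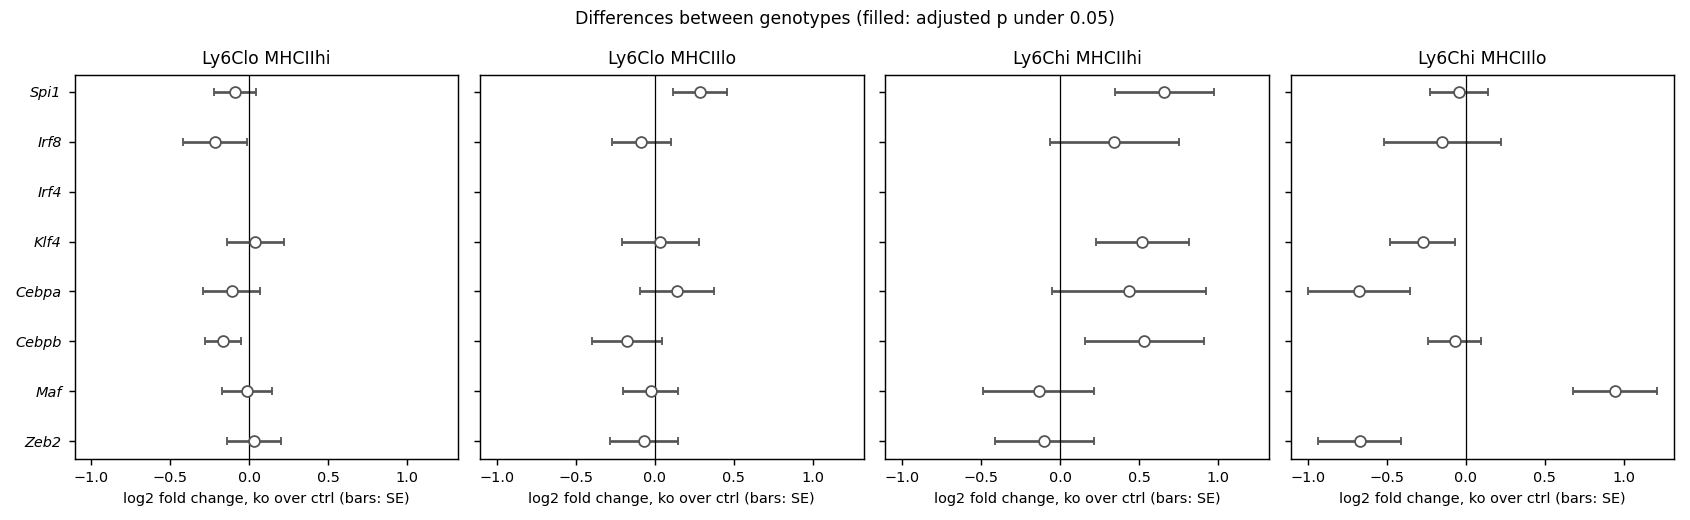
Log2 fold change of ko over ctrl for each factor (points, with SE bars) in each population; open points did not pass an adjusted p of 0.05, and Irf4, under the count filter, is not drawn. The points stay near 0 in both Ly6Clo populations, and only Maf at 0.94 and Zeb2 at -0.67 in Ly6Chi MHCIIlo had an unadjusted p under 0.05. Cebpa at -0.68 in Ly6Chi MHCIIlo and Spi1 at 0.66 in Ly6Chi MHCIIhi lie about as far from 0 as Zeb2.

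Libraries that share a replicate show how far a level moves between preparations. In the 8 Ly6Clo MHCIIhi replicates with 2 libraries, the median fold between both libraries was 1.07 for Zeb2, 1.12 for Spi1, 1.16 for Irf8, 1.19 for Cebpb, 1.24 for Klf4, 1.27 for Maf, 1.35 for Cebpa and 1.74 for Irf4. The highest fold was 1.70 for Cebpa and 5 for Irf4, the 2 members with the fewest counts.

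The factors also varied together, which is described here without a test since samples share their library depth and population. Over all 39 samples, Pearson's r was 0.66 for Cebpa with Maf, 0.62 for Klf4 with Cebpb, -0.55 for Cebpb with Maf and -0.53 for Klf4 with Maf. Within the 16 Ly6Clo MHCIIhi samples the same pairs had 0.42, 0.01, 0.07 and -0.16. Within these samples Irf4 went with Cebpb at 0.71, Irf8 with Cebpb at 0.68 and Spi1 with Maf at 0.68, pairs that had 0.10, -0.02 and 0.16 over all samples. Single samples lay at the ends of these pairs. Replicate 6 of ko, with 39872 counts, was the lowest of the 16 for Irf4, Irf8, Cebpb and Spi1. Replicate 3 of ctrl was the highest for Irf8 and Cebpb. The part of these samples in the values of r was not tested.

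Among 5349 genes with a mean of at least 20 CPM, those with the pattern most like a member over the 39 samples were as follows. Cebpa was nearest to C3ar1, the receptor of complement C3a, with r = 0.93, and next to Sptssa (0.93) and Slc35c2 (0.92), while within Ly6Clo MHCIIhi C3ar1 had -0.05. Cebpb was nearest to Mcl1 (0.92), a survival factor, Fosl2 (0.90), an AP-1 subunit, and Osm (0.90), the cytokine oncostatin M, with 0.62, 0.55 and 0.63 within Ly6Clo MHCIIhi. Maf was nearest to Stab1 (0.86), a scavenger receptor of macrophages, Fads1 (0.86) and Cd63-ps (0.85). Klf4 was nearest to the interferon-inducible genes Ly6e (0.82) and Zbp1 (0.80), with Naaa (0.81) between them, and Irf8 to Batf2 (0.76), a row named Mampt (0.75) and B2m (0.74), the light chain of MHC class I. Spi1 was nearest to Cyp4f16 (0.82), Mrpl43 (0.81) and Dnajc24 (0.81), and Zeb2 to Myh9 (0.72), Coro1a (0.71) and Zfp106 (0.70). Irf4 was under the minimum level.

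Of 57 other myeloid transcription factors, 54 are in the table, and they show what else in this class differed. In Ly6Clo MHCIIhi against Ly6Clo MHCIIlo, 13 of 43 tested were higher and 0 lower, where 12.5% of all genes tested were higher and 13% lower. With DESeq2 these counts were 12 and 1. Named by smallest p were Batf3 (2.09), a factor of cross-presenting dendritic cells, Bhlhe40 (0.79), Atf3 (0.76) and Batf (0.98), as log2 fold changes with adjusted p from 7.32e-06 to 0.00012. Their median difference was 0.25, against -0.00 over all genes tested. In Ly6Clo MHCIIhi against Ly6Chi MHCIIhi, 7 of 45 were higher and 6 lower, against 8.32% and 7.42% of all genes, led by Egr1 (1.09), Batf3 (1.38) and Cebpg (1.27), and by Nfkb1 (-0.83), Nfkb2 (-0.76), Hif1a (-0.66) and Irf7 (-0.80). These counts were 7 higher and 8 lower without Ly6Chi MHCIIhi ctrl replicates 1 and 3, against 13.5% of all genes called. Bhlhe40 then had the smallest adjusted p of these factors, at -0.79 (edgeR adjusted p = 7.838e-05). Nfkb1 and Nfkb2 encode NF-kB subunits.

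In Ly6Clo MHCIIlo against Ly6Chi MHCIIlo, 3 of 40 other factors were higher and 15 lower, against 18.3% and 18.9% of all genes, with a median of -0.34 against 0.03 over all genes. The higher ones were Bhlhe41 (3.98), Nr1h3 (1.88), the oxysterol receptor LXR alpha, and Egr1 (0.51). Lower were Irf7 (-1.80), the master factor of type I interferon, Nfil3 (-1.03), Nfkb1 (-1.17) and Runx1 (-1.0). In Ly6Clo MHCIIhi against Ly6Chi MHCIIlo, 9 of 44 were higher, led by Batf3 (1.69), Nr1h3 (1.65), Bhlhe41 (3.45) and Egr1 (0.91), and 16 lower, against 20.9% and 21.7% of all genes, led by Irf7 (-1.46), Runx1 (-0.92), Nfkb1 (-0.86) and Nr4a1 (-0.63). In Ly6Clo MHCIIlo against Ly6Chi MHCIIhi, 3 of 38 were higher, Bhlhe41 (2.89), Egr1 (0.65) and Klf2 (0.56), and 9 lower, against 11.3% and 12% of all genes, led by Bhlhe40 (-1.30), Nfkb1 (-1.18), Nr4a2 (-1.12) and Irf7 (-1.20). Without ctrl replicates 1 and 3 of Ly6Chi MHCIIhi, 6 of 43 were higher and 15 lower, against 24.8% of all genes called. Between the 2 Ly6Chi populations 0 of 41 passed with edgeR, against 1.32% of all genes higher and 1.66% lower, 8 had an unadjusted p under 0.05 and DESeq2 called 1, Nr4a2. Without the same 2 samples 2 of 44 were higher with edgeR, Bhlhe40 (0.67) and Nr4a2 (0.83), against 3.38% of all genes called. For ko against ctrl edgeR called 0 of 44, 35, 33 and 38 in Ly6Clo MHCIIhi, Ly6Clo MHCIIlo, Ly6Chi MHCIIhi and Ly6Chi MHCIIlo, with 7, 3, 3 and 10 at an unadjusted p under 0.05. DESeq2 called 2 of the 38 in Ly6Chi MHCIIlo, Klf2 and Nr4a1, both lower in ko, and none in the other 3.

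Known target genes of PU.1 and the C/EBP factors, 17 in all, did not move as 1 group. In Ly6Clo MHCIIhi against Ly6Clo MHCIIlo, 3 of 13 tested were higher, Fcgr1 (0.55), Csf1r (0.37) and Csf2ra (0.34), which encode an Fc receptor and growth factor receptors, where 12.5% of all genes tested were higher. In the same comparison 5 were lower, where 13% of all genes were, led by Csf3r (-1.78), Itgb2 (-0.58) and Lyz2 (-0.60). Csf3r, the receptor of granulocyte colony-stimulating factor, is also in the neutrophil list, whose sums were given with Zeb2. Csf3r and Cybb (-1.35 and -0.73) were the 2 of 16 that were lower in Ly6Chi MHCIIhi than in Ly6Chi MHCIIlo, against 1.66% of all genes. Without Ly6Chi MHCIIhi ctrl replicates 1 and 3, 5 were lower, with Elane, Lyz2 and Prtn3 added, and Csf1r was higher at 0.44 (adjusted p = 0.04125), where 3.38% of all genes were called in either direction.

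Across Ly6C, Cd14, a co-receptor for lipopolysaccharide, was lower in Ly6Clo in each of the 4 comparisons: -0.82 for Ly6Clo MHCIIhi against Ly6Chi MHCIIhi, -1.35 for Ly6Clo MHCIIlo against Ly6Chi MHCIIlo, -1.16 for Ly6Clo MHCIIhi against Ly6Chi MHCIIlo and -1.04 for Ly6Clo MHCIIlo against Ly6Chi MHCIIhi. Without Ly6Chi MHCIIhi ctrl replicates 1 and 3, the first was -1.15 and the last -1.34. In Ly6Clo MHCIIhi against Ly6Chi MHCIIhi, 1 of 15 was higher, Cybb (0.53), and 5 lower, with Itgam (-0.57) among them, against 8.32% and 7.42% of all genes. Prtn3, a protease of neutrophil granules, was lower at -3.82, but of its Ly6Chi MHCIIhi mean of 122.5 ± 262 CPM most came from ctrl replicate 1, and without it the mean was 23.6 ± 12.9 CPM (n = 6). Without ctrl replicates 1 and 3 the difference of Prtn3 was -2.38 (adjusted p = 0.002182), and 1 target was higher and 8 lower, against 13.5% of all genes called in either direction. In Ly6Clo MHCIIlo against Ly6Chi MHCIIlo, 2 of 15 were higher, Lyz2 (0.36) and Csf1r (0.31), and 6 lower, with Prtn3 (-4.99), Il1b (-0.77) and Csf2rb (-0.59) beside Cd14, against 18.3% and 18.9% of all genes. In Ly6Clo MHCIIhi against Ly6Chi MHCIIlo, 1 of 15 was higher, Csf1r (0.63), and 9 lower, with Cd14, Csf2rb (-0.90) and Csf3r (-1.61) among them, against 20.9% and 21.7% of all genes, and the median was -0.68 against -0.01 over all genes. In Ly6Clo MHCIIlo against Ly6Chi MHCIIhi, 3 of 13 were higher, Lyz2 (0.93), Cybb (0.71) and Csf3r (1.64), and Cd14 was the 1 that was lower, against 11.3% and 12% of all genes. Without ctrl replicates 1 and 3 of Ly6Chi MHCIIhi, 3 of 14 were higher and 4 lower, against 24.8% of all genes called in either direction. For ko against ctrl, 0 of the targets tested (14, 13, 11 and 15) passed with edgeR and none with DESeq2, and 1, 0, 1 and 3 had an unadjusted p under 0.05.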

How the data were processed

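Poly(A) RNA was sequenced in bulk from the 3′ end after a published protocol, per the labels. The authors deposited 1 table of raw whole-number counts, with gene symbols as rows and libraries as columns. GRCm38, DESeq2 1.18.1 and R 3.4.4 are named in the submitters' processing notes. Aligner, counter and strandedness are not stated in any source used here. The 48 columns were matched to samples by barcode. A row named z (127 counts, 0.000968% of 13126900) names no gene and was removed.

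Counts of the 2 libraries of 8 replicates were added, and 1 library under 28006.25 counts (0.1 of the median, 280062.5) was left out, which gives 39 samples. Genes were kept by filterByExpr (minimum count 10, minimum total 15); CPM are counts over TMM-scaled library sizes. Tests used the quasi-likelihood F test of edgeR 4.0.16 with TMM in R 4.3.3, checked on simulated data, with adjusted p covering all genes tested. A simulated log2 change of 1 was recovered for 36% of changed genes for ko against ctrl in Ly6Chi MHCIIlo. It was recovered for 76% for ko against ctrl in Ly6Clo MHCIIhi and 78% for Ly6Clo MHCIIhi against Ly6Chi MHCIIlo. A log2 change of 2 was recovered for 85%, 83% and 90%, in the same order. Other comparisons were not simulated. DESeq2 1.42.0 was an alternative, beside its size factors, dropping the count filter, keeping the shallow library, using library 1 alone, fitting libraries as separate samples with barcode class, 1 fit of all 8 groups, ctrl samples alone, a block for the replicate number, and leaving out each replicate. Fits without 2 shallow libraries and the permutation tests of Irf4 (pseudocounts of 0.5, 1 and 5) were added after seeing the data. Housing was not modelled. Coordinates are from GENCODE M21. Promoter windows are from RefSeq, which matched 6 of the 8 members with 10 windows.

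Members and gene lists were chosen with earlier results of these data known. Named genes were all members, up to 4 per direction with the smallest p of each list, and up to 3 genes with the highest r (at least 0.6) for each member at or above 20 CPM. Some genes that this rule names are not reported here. Intervals and floors cover counting error only, and the number of counts limits the precision of sparse genes such as Irf4.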

Additional observations from a re-analysis of the deposited data

Results flagged for a closer look

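Of 56 groups of 4 to 10 samples examined for the 8 factors, 5 held a sample far from the others of its group, and chance flags about 1 group in 20. Spi1 stood at 195.5 CPM in Ly6Clo MHCIIhi ko replicate 6, where the next lowest had 359.7 CPM, and this level rests on 9 counts. Spi1 stood at 546.8 CPM in Ly6Chi MHCIIhi ko replicate 4, where the next highest had 461.2 CPM. Irf8 stood at 847.6 CPM in Ly6Clo MHCIIhi ctrl replicate 3, where the next highest had 448 CPM. Klf4 stood at 334 CPM in Ly6Clo MHCIIhi ko replicate 5, where the next highest had 228.2 CPM. Irf4 stood at 15.4 CPM in Ly6Chi MHCIIhi ko replicate 4, where the next highest had 7.951 CPM, and this level rests on 4 counts.

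The library left out for its low total, Ly6Chi MHCIIhi ctrl replicate 2, still held counts above the 3 that a count of 0 allows for 2 of the factors: 5 counts of Spi1 and 12 counts of Cebpb among 8409.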

How the results depend on the processing

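Replicate numbers were not taken as pairs, since no comparison had every same-numbered pair over a correlation of 0.1. Samples correlated best with their own number in 6 of 7 pairs of Ly6Clo MHCIIlo against Ly6Chi MHCIIhi and in 5 of 7 of Ly6Chi MHCIIhi against Ly6Chi MHCIIlo, and in at most 3 pairs of each other comparison, a hint from the data and not the design, so the fit with a replicate block is given only here. With the block, 4 genes were called for ko against ctrl in Ly6Clo MHCIIlo, 708 in Ly6Clo MHCIIhi against Ly6Clo MHCIIlo and 443 in Ly6Clo MHCIIhi against Ly6Chi MHCIIhi, where the adjusted p of Cebpb was 0.309, and that of Klf4 in Ly6Clo MHCIIhi against Ly6Chi MHCIIlo was 0.0919. The cause of the changes below was not tested. For ko against ctrl, the counts over all genes without the count filter were 57 in Ly6Clo MHCIIhi, 24 in Ly6Clo MHCIIlo, 10 higher and 103 lower in Ly6Chi MHCIIhi, and 61 in Ly6Chi MHCIIlo. With all 8 groups in 1 fit they were 2, 0, and 8 higher and 25 lower, in the first 3, and with DESeq2 2, 4 (all lower) and 14 in the last 3. Without the 2 shallowest Ly6Chi MHCIIhi ctrl samples, 4 genes, all lower, were called in Ly6Chi MHCIIhi. Without the filter, Ly6Chi MHCIIhi against Ly6Chi MHCIIlo had 303. With ctrl samples alone, which are fewer, this comparison had 0, and Ly6Clo MHCIIhi had 326 against Ly6Clo MHCIIlo, 61 against Ly6Chi MHCIIhi and 1262 against Ly6Chi MHCIIlo, while Ly6Clo MHCIIlo had 767 against Ly6Chi MHCIIlo and 32 against Ly6Chi MHCIIhi. The interaction had 10 calls with DESeq2, 112 without the filter, 1 with all libraries kept and 0 without the 2 shallowest samples.

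Leaving out each sample in turn gave 0 to 0 calls for ko against ctrl in Ly6Clo MHCIIhi, 0 to 6 in Ly6Clo MHCIIlo, 0 to 4 higher and 0 to 24 lower in Ly6Chi MHCIIhi (both highest without ctrl replicate 4) and 0 to 7 in Ly6Chi MHCIIlo. Between populations the counts were 67 (without Ly6Chi MHCIIhi ctrl replicate 4) to 218 (without ctrl replicate 1) for Ly6Chi MHCIIhi against Ly6Chi MHCIIlo, 1077 to 1336 for Ly6Clo MHCIIhi against Ly6Clo MHCIIlo and 687 to 1004 against Ly6Chi MHCIIhi. They were 1552 to 1699 for Ly6Clo MHCIIlo against Ly6Chi MHCIIlo, 768 to 1260 against Ly6Chi MHCIIhi and 2288 to 2529 for Ly6Clo MHCIIhi against Ly6Chi MHCIIlo. The interaction had 0 to 91. The called differences of Cebpa, Maf, Cebpb, Klf4 and Zeb2 kept their sign under every alternative run, and those that fell short of the threshold are named with them above. Of 23 differences of members between populations that were neither called under any alternative nor had an unadjusted p under 0.05, 11 changed sign under at least 1 alternative, and of 26 between genotypes 16 did. With a pseudocount of 5 the adjusted p of Irf4 in Ly6Clo MHCIIhi against Ly6Clo MHCIIlo was 0.0328. Depth limits Irf4 most, with 218 counts in all.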
